A study of Mus musculus with 8 samples.

Results

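These regions are the sites at which HDAC1 was bound on day 2 of differentiation and at which acetylated histone H3 (H3ac) had a called peak on day 2 and on no later day. They were chosen by their overlaps: an HDAC1 peak on chromosomes 1 to 19 or X counted when it shared at least 1 bp with a day 2 H3ac peak and none with a day 4 or day 6 H3ac peak. The rule gave 260 of 5282 HDAC1 peaks, or 4.92%, and 17.8% of the 1464 HDAC1 peaks that overlapped a day 2 H3ac peak. The presence of H3ac on day 2 and its absence later are therefore what defined the sites and are not a result about them.

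The cells were mouse embryonic stem cells (ESCs) of strain 129/Ola that had been plated on gelatin and left to differentiate for 2, 4 or 6 days in N2B27, a medium without serum. HDAC1 was precipitated on day 2 only, as 3 FLAG-HDAC1, with an antibody from Sigma, so the HDAC1 peaks are those of a tagged protein, and its amount relative to the cell's own HDAC1 is not given in the sources used here. H3ac was precipitated on days 2, 4 and 6 with an antibody from Millipore against acetylated histone H3. For every target and time point 1 ChIP and 1 input library were made, and only the 4 ChIP peak lists were used. With 1 library per target and day there is no replicate spread and no test, and every interval given is a 95% interval that covers counting error over peaks or genes only.

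The H3ac list of day 2 held 17368 peaks, that of day 4 held 12945, that of day 6 held 5553, and the HDAC1 list held 5286. The lists thus became shorter and their peaks wider with time, from a median of 591 bp on day 2 to 1898 bp on day 6, while the length they covered was 12.8, 11.9 and 11.6 Mb. Depth was not used here, and a site without a later peak can still have been acetylated below the calling threshold. Gene-end H3ac was present at 21, 8 and 10 of 34 pluripotency genes on days 2, 4 and 6, and at 7, 16 and 8 of 31 neural progenitor genes, beside 41.0%, 38.4% and 23.5% of all protein-coding genes.

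HDAC1 is a class I histone deacetylase: it removes acetyl groups from histone tails and works inside repressor complexes such as NuRD, Sin3 and CoREST. Acetylation of histone H3 marks active promoters and enhancers, and deacetylases are nonetheless commonly found at acetylated, active genes. As ESCs leave the naive state they pass through a primed state like that of the epiblast, in which Oct4 (Pou5f1) is still made while Fgf5, Pou3f1 and Otx2 come on, and in neural medium they then lose Oct4 as neural genes rise.

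Promoter sequence at the sites was read from RefSeq windows of assembly GRCm38.p6 (the coordinates of mm10) that run from 250 bases before a listed start to 50 after it. Of 11 short words searched on both strands, the E-box word CACGTG, the core recognised by MYC, MAX, USF and TFEB-type proteins, had a higher share under the sites than in each other group of windows compared. It lay in 26 of the 98 windows under a site (26.5%, 18.8 to 36.0), against 13.8% of the 362 windows under HDAC1 sites acetylated on all 3 days, 11.8% of the 1191 windows with a day 2 only H3ac peak and no HDAC1 peak, 12.8% of the 187 windows under HDAC1 peaks without H3ac, and 7.20% of all 32585 windows. The TCF word CTTTGAT and the octamer word ATTTGCAT also had their highest shares under the sites among the groups counted for them. They lay in only 5 and 2 of the 98 windows. The 26 windows belonged to 24 genes and held the word at 25 distinct places, 18 of them inside the HDAC1 peak itself. A set of 4 of these promoters are shown, each cut to the bases before the start that the HDAC1 peak covered, 5′ to 3′ on the gene's strand and with every searched word in capitals. Nagpa encodes the enzyme that uncovers the mannose 6-phosphate tag of lysosomal enzymes, Ap5z1 a subunit of the AP-5 adaptor, Clcn6 a chloride-proton exchanger of late endosomes, and Insig1 a sterol-dependent brake on SREBP processing. Besides the E-box word, the capitals mark the TCF word CTTTGAT, read on the opposite strand, in Nagpa. In Ap5z1 they mark the ETS word CCGGAAG and in Insig1 the GC box GGGCGG.
Nagpa (chr16:5204013-5204109, minus strand): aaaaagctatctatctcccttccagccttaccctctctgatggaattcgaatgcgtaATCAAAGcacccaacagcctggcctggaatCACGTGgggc
Ap5z1 (chr5:142463890-142463930, plus strand): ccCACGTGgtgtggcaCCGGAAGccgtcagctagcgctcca
Clcn6 (chr4:148038814-148038882, minus strand): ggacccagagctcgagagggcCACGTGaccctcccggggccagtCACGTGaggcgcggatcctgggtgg
Insig1 (chr5:28071285-28071411, plus strand): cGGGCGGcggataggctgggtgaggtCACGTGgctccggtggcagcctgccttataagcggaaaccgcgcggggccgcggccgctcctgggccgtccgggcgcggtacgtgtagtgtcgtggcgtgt

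The word sat 10 bases before the start in Nagpa, 39 in Ap5z1, 48 and 25 in Clcn6, and 101 in Insig1. Another copy began 5 bases after the start in Nagpa and 8 in Ap5z1, inside the HDAC1 peak but past the stretches printed. Nagpa and Ap5z1 were also among the 10 sites with the highest HDAC1 scores, at 168.61 and 191.17; the score is the authors' own value for a peak, of unstated scale, and ranks peaks within 1 list only. Other genes with the word under a site included Atp6v0d1, a subunit of the proton pump that acidifies lysosomes, Lonp1, the mitochondrial matrix protease, and Mapk12, a p38 kinase. A day 4 H3ac peak lay 46 bp from the site at Atp6v0d1, 118 at Insig1, 167 at Lonp1, 231 at Clcn6 and 387 at Mapk12. At Nagpa and Ap5z1 the nearest day 4 peak was 29430 and 61106 bp away. Dhx33, Prpf39, Ipo4 and Commd9 were also among the 24 genes with the word, and whether these genes share a function was not tested. Genes with the word other than Nagpa and Ap5z1 were named after the values were seen.

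The difference in E-box share was 12.7 percentage points (4.04 to 22.7) against the windows of HDAC1 sites acetylated on all 3 days and 14.8 (6.80 to 24.4) against day 2 only H3ac windows without HDAC1. Overlapping windows were then reduced to 1 per place, which left 21 of 84 windows with the word (25.0%), and the differences were 11.8 (2.54 to 22.6) and 13.1 (4.84 to 23.5) points. The ETS word CCGGAAG, the core of ETS family sites, went the other way against the sites that stayed acetylated: 14.3% of the windows under day 2 only sites held it, against 34.8% under all-day sites, a difference of -20.5 points (-28.0 to -11.0). Against day 2 only H3ac windows without HDAC1, of which 12.2% held the ETS word, the difference was 2.11 points (-3.81 to 10.6), within counting error. The intervals are not adjusted for the 11 words searched. The difference from all-day sites was not stable to how the sites were chosen. It was 8.88 points (-0.83 to 21.6) without a later peak within 1 kb, 5.80 (-3.35 to 18.0) with the higher-scoring 50% of day 2 peaks, and 1.10 (-6.71 to 11.2) when the 3 H3ac lists were cut to equal numbers of top-scoring peaks, where the shares were 15.0% of 80 and 13.9% of 259 windows. That last cut changed much of the membership, with 88 of its 172 sites among the 260, and the cause was not tested.

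**Figure D1:**
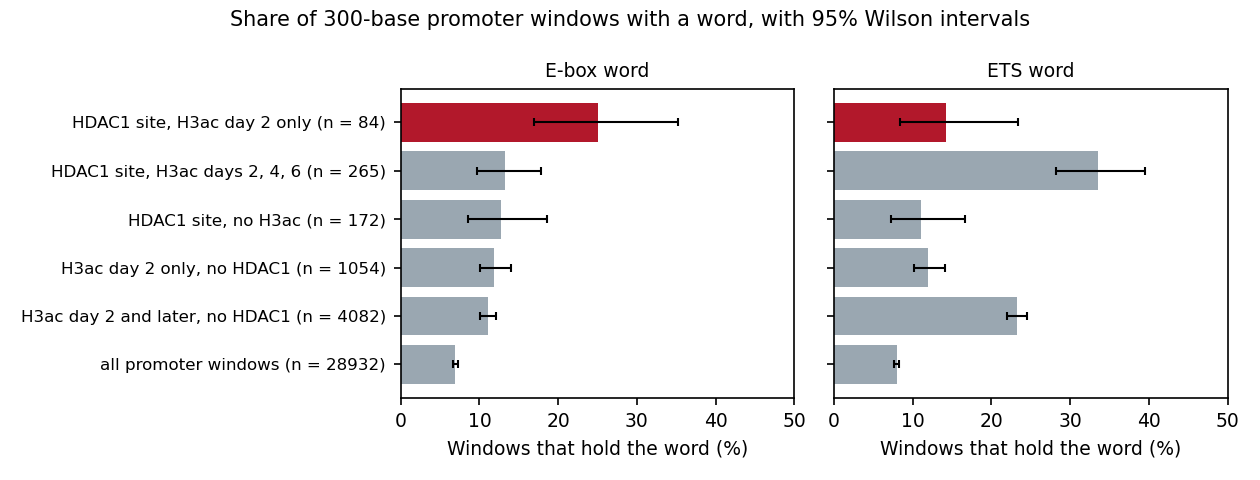
Share of 300-base promoter windows that hold the E-box word (left) or the ETS word (right), with 1 window per place, by the peaks over the window; bars are percentages and whiskers 95% Wilson intervals, counting error only. Windows under HDAC1 sites with day 2 only H3ac stand at 25.0% for the E-box word, above the 6.96% to 13.2% of the other groups, and at 14.3% for the ETS word, below the 33.6% of all-day HDAC1 sites.

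The remaining words are given beside their share of the 6988 windows with a day 2 H3ac peak. The GC box GGGCGG was in 64.3% of the windows under the sites and in 65.9% of those, and the CCAAT box (the word CCAAT) was in 40.8% and 36.6%. The octamer word ATTTGCAT, read by OCT4 and its relatives, was in 2 of 98 windows (2.04%), beside 1.17%, and the SOX word CATTGT in 5.10% beside 6.04%. TATAAA was in 0 of the 98, which allows a share of up to 3.06% (3 counts), beside 5.37%. The orphan nuclear receptor word AAGGTCA was in 2.04% beside 2.83%, and the KLF word CCACACCC in 1.02% beside 3.48%. The YY1 word AAGATGGC was in 5.10% beside 5.98%, and the TCF word in 5.10% beside 2.46%. Over all 32585 windows the shares of these words, in the same order, were 35.9%, 37.6%, 1.75%, 12.2%, 13.7%, 4.72%, 3.57%, 2.75% and 3.76%. Under all-day sites and under HDAC1 peaks without H3ac, the TCF word was in 2.76% and 1.07% of windows. The octamer word was in 0.829% and 1.60% of them. The windows under the sites were rich in G and C, with a median of 61.0% (58.3 to 62.3) against 53.0% over all windows and 60.7% under all-day sites. Their ratio of observed to expected CpG was 0.773 (0.732 to 0.851), between the 0.386 of all windows and the 0.870 (0.847 to 0.887) of all-day sites.

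Promoters of 5 more loci that the results turn on are shown in the same way. Those of Utf1, Klf9 and Cd9 are cut to the bases that the HDAC1 peak covered. At Pou5f1 and Mirc35hg no HDAC1 peak covered any of the 250 bases before the start. For these 2 loci the bases before the start that the day 2 H3ac peak covered are given. The capitals mark the GC box and the CCAAT box, on either strand.
Pou5f1 (chr17:35505782-35506031, plus strand): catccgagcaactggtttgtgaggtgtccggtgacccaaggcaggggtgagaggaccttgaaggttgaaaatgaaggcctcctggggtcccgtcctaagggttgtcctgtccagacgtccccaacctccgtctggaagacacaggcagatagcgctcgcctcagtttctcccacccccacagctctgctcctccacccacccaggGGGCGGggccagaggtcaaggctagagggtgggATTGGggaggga
Utf1 (chr7:139943608-139943855, plus strand): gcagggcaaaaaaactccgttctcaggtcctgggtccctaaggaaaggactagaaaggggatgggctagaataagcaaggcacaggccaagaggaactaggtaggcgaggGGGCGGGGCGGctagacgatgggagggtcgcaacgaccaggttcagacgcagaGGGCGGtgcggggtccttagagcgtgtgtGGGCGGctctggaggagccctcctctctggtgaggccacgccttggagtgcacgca
Klf9 (chr19:23140976-23141225, plus strand): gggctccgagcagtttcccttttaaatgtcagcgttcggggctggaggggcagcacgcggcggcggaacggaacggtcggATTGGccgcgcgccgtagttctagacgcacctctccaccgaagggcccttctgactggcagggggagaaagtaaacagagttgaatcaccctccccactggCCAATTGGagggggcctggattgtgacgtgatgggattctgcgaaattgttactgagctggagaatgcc
Cd9 (chr6:125494761-125494822, minus strand): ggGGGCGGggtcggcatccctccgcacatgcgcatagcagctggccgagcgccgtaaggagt
Mirc35hg (chr6:30174126-30174375, minus strand): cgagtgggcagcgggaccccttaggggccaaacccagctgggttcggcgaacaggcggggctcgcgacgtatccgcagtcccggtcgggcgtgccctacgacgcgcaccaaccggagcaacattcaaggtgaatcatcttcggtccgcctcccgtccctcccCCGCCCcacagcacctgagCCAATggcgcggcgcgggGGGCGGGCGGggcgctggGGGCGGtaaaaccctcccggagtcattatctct

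Relative to HDAC1 sites that overlapped H3ac on a later day, those with day 2 only H3ac lay more often outside genes, and relative to HDAC1 peaks without H3ac they lay there less often. Of the 260, 140 had their midpoint at most 1 kb from the end of a protein-coding gene (53.8%, 47.8 to 59.8), 69 lay farther inside a gene (26.5%, 21.5 to 32.2) and 51 outside genes (19.6%, 15.2 to 24.9). HDAC1 sites acetylated on all 3 days were at gene ends in 78.1% and outside genes in 2.78% of cases, which put the day 2 only sites -24.2 points (-31.0 to -17.4) from them at gene ends and 16.8 points (12.2 to 22.2) above them outside genes. Within quintiles of the day 2 H3ac score the same differences were -24.9 (-32.2 to -16.7) and 16.7 (11.3 to 22.3) points. The location of the sites moved with the lists used. With equal numbers of top-scoring H3ac peaks, 70.3% of the day 2 only sites were at gene ends and 13.4% outside genes. All-day sites were not placed under that cut, and the cause was not tested. HDAC1 peaks without H3ac were farther out still, with 12.0% at gene ends and 44.7% outside genes.

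**Figure D2:**
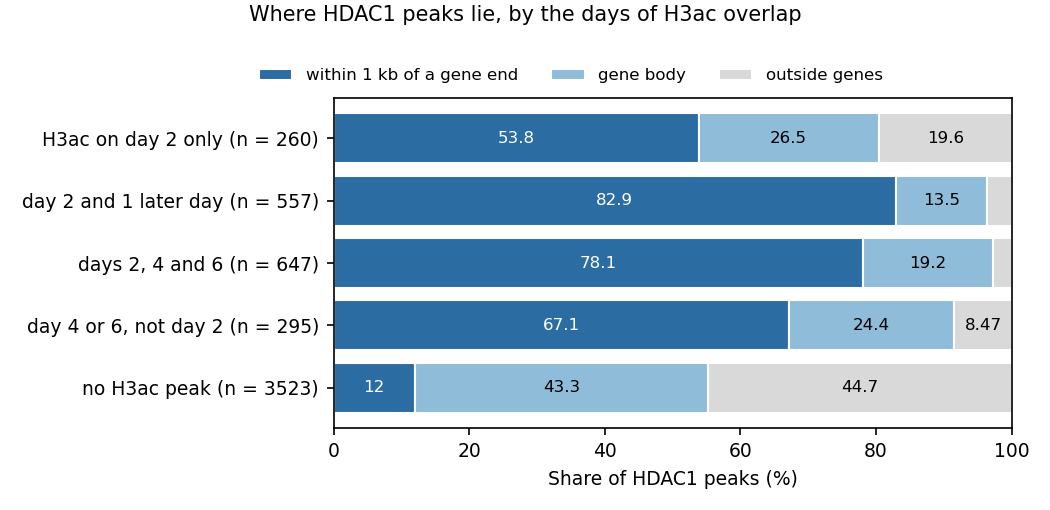
Share of HDAC1 peaks within 1 kb of a protein-coding gene end, in a gene body or outside genes (horizontal axis, percent), for the 5 classes of H3ac overlap (rows, with the number of peaks). Day 2 only sites have 53.8% at gene ends, between the 67.1% to 82.9% of the other acetylated classes and the 12.0% of HDAC1 peaks without H3ac.

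Read the other way, the share of HDAC1 sites with day 2 H3ac that had no later peak was 12.6% (10.8 to 14.7) at gene ends, 25.7% (20.9 to 31.3) in gene bodies and 57.3% (46.9 to 67.1) outside genes. Listed starts were counted apart from gene ends, since a gene can also have one farther inside it. The Lef1 site, placed in a gene body, had its midpoint at -306 bp from such a start. Of the 260 sites, 129 (49.6%, 43.6 to 55.7) had their midpoint within 1 kb of a listed start, 82 of them downstream and 47 upstream of it. This count therefore does not divide the gene-end sites into starts and other ends. The same share was 74.7% for the 647 all-day sites and 8.69% for the 3523 HDAC1 peaks without H3ac. A further 40 of the 260 sites lay at 1 to 10 kb from the nearest listed start on the chromosome and 87 beyond 10 kb. Listed starts cover 79.9% of protein-coding genes, so the 87 include sites at the ends of genes without one, such as Matn2, Trim33 and Prim2. Chromosome 18, with 4 sites, has no listed start. Of the HDAC1 peaks on X, 0 of 24 was a day 2 only site, which allows a share of up to 12.5%. By count, chromosomes 11 and 7 held the most, with 24 of 438 and 23 of 365 HDAC1 peaks. Chromosome 19 had 15 of 156, beside 260 of 5282 over all the chromosomes used.

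At the gene level, 166 of 21627 protein-coding genes (0.768%) had such a site within 1 kb of an end and 364 (1.68%) had one in the gene or within 10 kb. Among 23 gene lists of pathways, cell types and complexes, the pluripotency list (34 genes) had 3 with a site at an end (8.82%), and the primed epiblast list (23 genes) had 1 at an end and 5 within 10 kb (21.7%). The other 21 lists had 0 genes with a site at an end, and 8 of these lists had 1 gene each within 10 kb, among them Dll3, a Notch ligand, Shc1, an adaptor of receptor tyrosine kinases, Suds3, a Sin3 subunit, and Phc1, a Polycomb protein, named after their values were seen. The lists that met the sites are small, the sites were proposed with pluripotency and epiblast loci in mind, and the counts are a description.

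The 3 pluripotency genes were Pou5f1, which encodes OCT4, Utf1, a chromatin factor of pluripotent cells, and Fgf4, the growth factor that pushes ESCs out of the naive state. Their strongest day 2 H3ac peaks ranked 32, 198 and 2239 of 17368, and no H3ac peak of day 4 or day 6 lay at their ends.

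Pou5f1 (chr17:35506032-35510777) carried 2 of the sites upstream of its start, at -2091 to -1748 bp with an HDAC1 score of 53.45 and at -1366 to -667 bp with a score of 145.14. This stretch is, as background, where the distal and proximal enhancers of the gene lie. The nearer HDAC1 peak was 700 bp wide, against a median of 332 bp over the sites, and ranked 373 in the HDAC1 list. It straddled 2 day 2 H3ac peaks, one of score 206.15 upstream and one of score 1035.01 that ran from -942 to 2653 bp and ranked 32 of 17368. The next H3ac peak of day 4 began 10163 bp from the start, past the end of the gene, and no day 6 peak lay within 10 kb of the gene. Both sites also fall in Gm32362, a long non-coding RNA gene, and count as sites within 10 kb of Tcf19, the neighbouring gene.

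Utf1 (chr7:139943856-139945112) had 2 sites, one across its start at -248 to 173 bp (HDAC1 score 58.34) and one across its end at 1253 to 1585 bp (51.82). Both touched 1 day 2 H3ac peak of score 607.2, rank 198, that spanned the whole gene from 8 to 1717 bp. Weaker day 2 peaks followed, with scores 102.26 and 66.12, and the nearest day 4 peak began 6783 bp from the start. The HDAC1 peak at the start lay over the 4 GC boxes printed for Utf1.

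Fgf4 (chr7:144861386-144865245) had a single site at its start, from -57 to 186 bp, with an HDAC1 score of 54.35, near the lowest score of 50. The day 2 H3ac peak under it ran from -22 to 1435 bp with a score of 216.58, and no later H3ac peak lay within 10 kb of the gene.

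The list as a whole puts these 3 genes in context. Of the 21 pluripotency genes with day 2 gene-end H3ac, 11 had no gene-end peak on either later day: Dppa2, Dppa4, Dppa5a, Fgf4, Gdf3, Klf2, Klf4, Nanog, Pou5f1, Stat3 and Utf1. HDAC1 peaks were called at the ends of 3 of the 11, the 3 with a site, and at none of the ends of the other 8, Nanog and Klf4 included. Of the 10 pluripotency genes with a later peak, 1 had an HDAC1 peak at an end. Over all 21627 protein-coding genes, 2057 (9.51%) had an HDAC1 peak at an end. Day 2 gene-end H3ac without a later peak was thus seen at pluripotency genes with and without a called HDAC1 peak, and the numbers are too small for a share.

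The 5 primed epiblast genes were Pou3f1, Lef1, Sox4, Fgf5 and Etv4. At Pou3f1 (chr4:124657646-124660655), the POU factor of the late epiblast and early neural cells, the site had an HDAC1 score of 117.19 inside a day 2 H3ac peak of score 433.48. That same H3ac peak also met a day 4 peak of score 101.32, under a second HDAC1 peak of score 55.31, so at this gene 1 HDAC1 peak was a day 2 only site and its neighbour was not. Lef1 (chr3:131110297-131224357), the nuclear partner of beta-catenin, showed the same pattern: the site lay at 1893 to 2483 bp with an HDAC1 score of 131.85, and the day 2 H3ac peak under it (score 546.11, 18 to 2960 bp) met 2 day 4 peaks of scores 65.47 and 93.37 nearer to the start. The nearest of these ended 357 bp from the HDAC1 peak.

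Sox4 (chr13:28948919-28953699), an SRY-related factor of progenitor cells, had its site upstream at -4466 to -4244 bp with a score of 51.66, while the gene itself was under day 4 and day 6 H3ac peaks of scores 783.66 and 555.58. Fgf5 (chr5:98254184-98277033), the marker of the primed epiblast, had a site at 1435 to 1772 bp with an HDAC1 score of 73.87 over a weak day 2 peak of 72.72. None of its H3ac peaks of day 2 passed 72.72 and none of day 4 or day 6 was within 10 kb. Etv4 (chr11:101769747-101785310), an ETS factor downstream of FGF, had a site with scores of 51.03 for HDAC1 and 54.07 for H3ac, both near the lowest score of 50. Of the 5 primed epiblast genes, Fgf5 and Etv4 had no later H3ac peak nearby and Pou3f1, Lef1 and Sox4 did.

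Among the sites outside protein-coding genes, the strongest day 2 H3ac after that of the Pou5f1 site was at Mirc35hg (chr6:30158640-30174125, minus strand), the host transcript of miR-183, miR-96 and miR-182, a cluster best known from sensory cells. It was picked after its values were seen; by the rule for protein-coding genes the nearest gene was Nrf1, 20515 bp away. A pair of sites lay here, at -1698 to -1224 bp (HDAC1 score 79.26) and at 18 to 285 bp (51.56), both at 1 day 2 H3ac peak of score 471.59, rank 399, that covered the start from -1360 to 1952 bp. No day 4 or day 6 peak lay within 10 kb of the gene, and the nearest day 4 peak to either site was 41734 bp off. The mature 5p products are shown with the seed (bases 2 to 8) in capitals. The seeds of miR-96 and miR-182 agree over bases 2 to 7 (UUGGCA), whereas that of miR-183 differs.
mmu-miR-96-5p: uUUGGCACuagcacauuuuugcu
mmu-miR-182-5p: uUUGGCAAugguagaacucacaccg
mmu-miR-183-5p: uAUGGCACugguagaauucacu

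In all, 45 of the 260 sites lay within 1 kb of a long non-coding RNA gene, 22 of them outside protein-coding genes, and 5 lay within 1 kb of a small nuclear RNA gene. These counts were not made for the other HDAC1 peaks, so they do not show whether the sites differ from them. Small nuclear RNA genes occur in near-identical copies, so reads there may be shared between copies. The site with the fifth highest HDAC1 score among the 260 (174.55, day 2 H3ac 137.89) covered the small nuclear RNA gene Gm22973 at chr12:59040335-59040525. The site in Hhat (148.14, day 2 H3ac 63.41) covered another such gene, Gm22265 at chr1:192745571-192745686. A pair of sites lay over 100 kb from any protein-coding gene, and leaving them out gave 258. One of them was the widest of all, 1979 bp (chr17:39842982-39844960) in a day 2 H3ac peak of 6081 bp, at a place that mm10 is known to hold a copy of the ribosomal RNA repeat.

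By score, the sites were close to the other HDAC1 classes, and their day 2 H3ac was low beside HDAC1 sites with later H3ac. The median HDAC1 score was 64.8 (61.4 to 67.7, range 50 to 575.27), against 64.6 for all-day sites, 67.8 for sites with H3ac on day 2 and 1 later day and 65.3 for HDAC1 peaks without H3ac. The share of HDAC1 sites with day 2 H3ac that had no later peak ranged from 16.1% to 19.5% over quintiles of the HDAC1 score, with intervals that overlap throughout. The day 2 H3ac score had a median of 87.8 (81.1 to 98.3, range 50.25 to 1221.96), against 155 for sites with 1 later day and 233 for all-day sites, and the day 2 peaks were also narrower, with medians of 678 and 1156 bp. Over quintiles of the day 2 score, the share without a later peak was 41.0%, 21.8%, 13.0%, 9.22% and 3.75% from lowest to highest. Within the day 2 list as a whole the sites were not low, with 148 of the 260 (56.9%, 50.8 to 62.8) above the list's median score of 80.19. The day 2 list is part of the contrast that chose the sites, so these scores describe them and support nothing more.

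**Figure D3:**
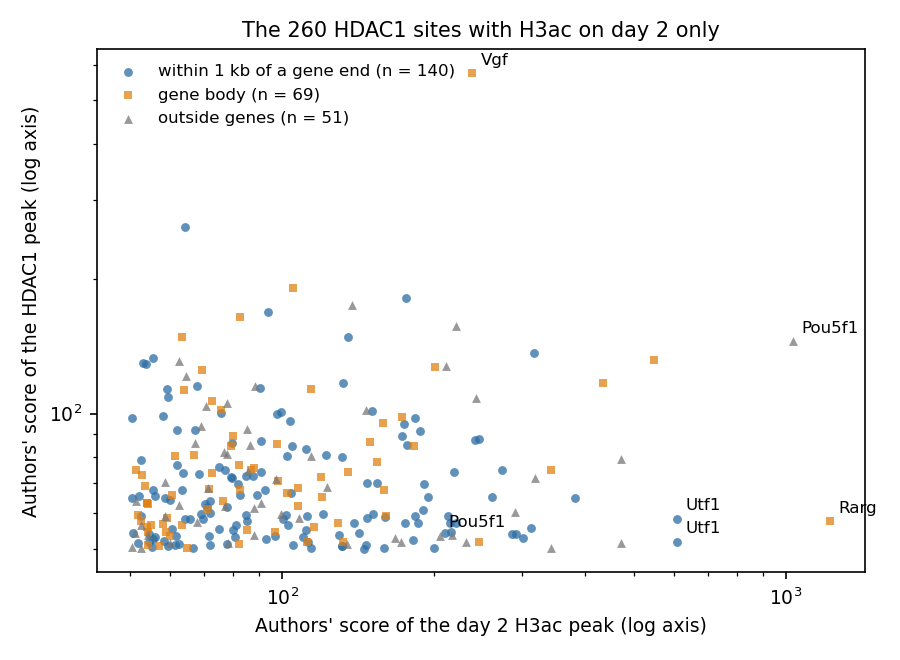
The 260 sites by the authors' score of the day 2 H3ac peak (horizontal, log axis) and of the HDAC1 peak (vertical, log axis), with symbols for the location of the HDAC1 peak's midpoint; the sites at Pou5f1, Utf1, Rarg and Vgf are named. Most points lie at the low end of both axes, and the sites with H3ac scores above 600 are at Rarg, Pou5f1 and Utf1.

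The 10 sites with the strongest day 2 H3ac included, besides Pou5f1, Utf1, Lef1, Mirc35hg and Pou3f1, those of Rarg, Eif2a with Serp1, and Hspbap1. Rarg encodes a retinoic acid receptor; its site (HDAC1 score 57.66) lay inside the gene under the highest H3ac score of all, 1221.96, and the same H3ac peak met a day 4 peak of score 52.49 at 1475 bp from the HDAC1 peak. At Eif2a and Serp1 (HDAC1 64.92, H3ac 380.95) the nearest day 4 peak was 35 bp away, and at Hspbap1 (74.81 and 342.41) 94 bp away. The sites of Rarg, Lef1, Pou3f1, Eif2a and Hspbap1 thus lay in day 2 H3ac peaks that also met a day 4 peak, whereas those of Pou5f1, Utf1 and Mirc35hg had no later peak within 5 kb.

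The highest HDAC1 score among the sites was 575.27, in Vgf, the precursor of neuropeptides (chr5:137025301-137033351), with a day 2 H3ac score of 238.45 and a day 4 peak 12 bp away. Flad1, which makes FAD, followed with 261.11 for HDAC1 and 64.14 for H3ac. Others of the top 10, besides Ap5z1 and Nagpa, were at or nearest to Lrrc24 and C030006K11Rik (181.48), Trappc6b, Rinl (164.52), Car4 (156.94, 13561 bp off) and Hhat (148.14). The Trappc6b and Hhat sites were those at the small nuclear RNA genes Gm22973 and Gm22265 named above. H3ac scores of the top 10 ran from 63.41 to 238.45. Next in HDAC1 score, outside these 10, came the Pou5f1 site, with 145.14 and an H3ac score of 1035.01.

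Several genes had more than 1 site within 10 kb. Klf16, a Kruppel-like factor, and its neighbour Abhd17a had 3, with HDAC1 scores of 98.59, 67.7 and 108.38 and day 2 H3ac scores of 57.98, 55.53 and 242.73, and the only day 4 peak within 10 kb of Klf16 lay beyond the other end of the gene. Igfbp2, an IGF-binding protein, had 2 sites of scores 59.4 and 55.51 at its start and another HDAC1 peak of 89.44 that overlapped a day 4 peak of 92.17. Trim33, a SMAD4-modifying ubiquitin ligase, had 2 of scores 97.9 and 59.15 beside day 4 and day 6 peaks of 156.76 and 171.3 inside the gene. Bicdl2, Cnot10, Dcaf1, Kndc1, Matn2, Mef2d, Mmp25 and Ppfia3 also had 2 each, Bicdl2 and Mmp25 the same 2.

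Cd9 and Klf9, both picked after their values were seen, show the range at starts. Cd9 (chr6:125460266-125494760, minus strand), a tetraspanin of ESCs and epiblast, had a site at -62 to 167 bp with an HDAC1 score of 50.26 and H3ac of 199.99, and no day 4 or day 6 peak within 10 kb of the gene. Klf9 (chr19:23141226-23168129) had a site at -475 to 97 bp with a score of 96.56 at a day 2 peak of 103.5, while a stronger day 2 peak of 565.92 just downstream met a day 4 peak of score 50.13.

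How close the sites came to later H3ac varied widely. The nearest day 4 peak was a median of 14546.5 bp away (10830 to 22409) and the nearest day 6 peak 59921.5 bp (49473 to 73873). In 145 of the 260 (55.8%, 49.7 to 61.7) no later peak lay within 10 kb, whereas a day 4 peak lay within 1 kb of 62 (23.8%) and a day 6 peak within 1 kb of 14 (5.38%). In 38 (14.6%, 10.8 to 19.4) the day 2 H3ac peak under the site itself met a later peak, on day 4 in 37 and on day 6 in 4, and the other 222 had neither. At the edge of the rule, the sites nearest to a later peak were at Dhx33 (6 bp), Calcoco1 (10 bp), Hexdc (12 bp) and Vgf (12 bp), and the HDAC1 sites kept out by the smallest overlaps were at Abcf3 (17 bp), Coa5 (18 bp) and Mybl2 (28 bp). Sod2 and Dnmbp came in through 2 bp of day 2 H3ac, and the HDAC1 peak nearest to Spink4, 4 bp from a day 2 peak, did not.

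Among the 166 genes with a site at an end, an H3ac peak of day 4 lay at an end of 65 (39.2%, 32.1 to 46.7). One of day 6 lay there in 13 (7.83%, 4.63 to 12.9), and 98 (59.0%, 51.4 to 66.2) had none on either later day. Over all 8874 genes with a gene-end peak on day 2 these shares were 79.0%, 49.9% and 16.8%. The rule looks at the same peaks, so this is a description, and a later gene-end peak need not lie where the day 2 peak was: those of day 4 at Flad1 and Ppfia3, examples picked after their values were seen, overlapped no day 2 peak.

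Day 2 H3ac peaks with an HDAC1 peak were less often without a later peak than those without one. Of the 1434 day 2 H3ac peaks with an HDAC1 peak, 231 (16.1%, 14.3 to 18.1) had no later overlap, against 7277 of 15923 without one (45.7%, 44.9 to 46.5). Bound peaks scored higher, and within deciles of the day 2 score the difference was -8.28 points (-9.96 to -6.26). It was -4.38 (-6.04 to -2.13) at gene ends, -6.85 (-10.6 to -2.25) in gene bodies and -6.49 (-15.8 to 2.59) outside genes, the last within counting error. In the lowest decile 45.0% of bound and 76.6% of unbound peaks had no later overlap, and in the highest decile 2.26% and 2.09%. With the same number of top-scoring peaks taken from each H3ac list the difference was 0.20 points (-2.06 to 3.06), an interval that spans 0; the cause was not tested.

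**Figure D4:**
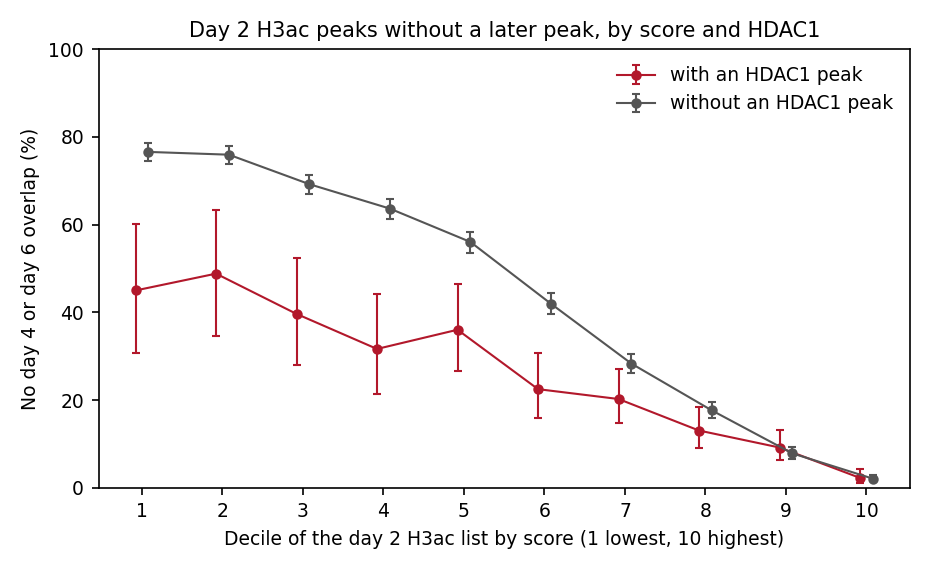
Share of day 2 H3ac peaks with no day 4 or day 6 overlap (vertical, percent) by decile of the day 2 list in score (horizontal), for peaks with and without an HDAC1 peak; whiskers are 95% Wilson intervals, counting error only. In the lowest decile the shares are 45.0% with and 76.6% without HDAC1, and in the highest decile 2.26% and 2.09%.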

How the data were processed

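The sites, gene lists and words were chosen with earlier results of these data known, so none of them is independent of the data. The submitters' processing notes name Bowtie 0.12.8 and mm10. Peak names in the files carry the prefix MACS. The version and threshold of that caller, and whether inputs were used, are not stated in the sources used here. Every list deposited gives 1 ChIP library's peaks with a score, the authors' own value of unstated scale (50 to 3100), used only within its list. Read depth was not used here. Peaks off chromosomes 1 to 19 and X (11, 2, 4 and 4 for H3ac days 2, 4, 6 and HDAC1) were left out. Overlap meant at least 1 bp.

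Genes were the 21627 protein-coding genes of a RefSeq table (GRCm38.p6), which gives no exons, so sites were placed by gene end (within 1 kb), gene body or outside. Starts came from RefSeq promoter windows, which cover 17273 of these genes (79.9%) and none on chromosome 18; 1700 of 1700 overlapping windows on opposite strands matched as reverse complements.

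Shares have Wilson and differences Newcombe intervals, medians order-statistic intervals, all 95%; no test was made, since peaks and genes are not replicates. Genes named by rule were: pluripotency and primed epiblast genes with a site within 10 kb; those at or nearest to the 10 highest HDAC1 and the 10 highest day 2 scores; those with 2 or more sites within 10 kb; and sites and non-sites at the edge of the rule. Not every gene that the rule names is reported here. Alternatives are in the closing section. The calculations used Python 3.11.15, numpy 2.4.6, pandas 2.3.3 and scipy 1.17.1, and were tested on simulated peaks.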

Additional observations from a re-analysis of the deposited data

How the results depend on the processing

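Of 68 alternative values for the main results, 43 stayed within the interval of the reported value or within 1.5 times the reported count. Requiring at least 50% of the HDAC1 peak in the day 2 peak left 179 sites, and judging later overlap by the day 2 peak left 222. Without a later peak within 1 kb, 191 sites remained, 47.6% of them at gene ends, with 102 genes with a site at an end. The higher-scoring 50% of HDAC1 peaks gave 125 sites, 77 genes, 2 list genes (Pou3f1 and Pou5f1) and a median HDAC1 score of 85.2. The higher-scoring 50% of day 2 peaks gave 148 sites, 99 genes, a median day 2 score of 135 and a bound minus unbound difference of -3.46 points. Equal numbers of top H3ac peaks gave 172 sites, of which 88 were among the 260, with 70.3% at gene ends, 16.3% in gene bodies, 13.4% outside, a median day 2 score of 177 and a difference of 0.20 points, the 1 reversal; the cause was not tested. Gene-end shares were 40.4% with a window of 0.5 kb (gene bodies 36.5%, 2 list genes). They were 67.7% with 2.5 kb (gene bodies 17.3%) and 61.9% with all gene types. The 2 list genes at 0.5 kb were Fgf4 and Utf1. Pou5f1 was not counted there, as its nearer site ended 667 bp before the start. The bound minus unbound difference was -29.6 points without matching and, in alternatives chosen after seeing the data, -11.0 within deciles of peak width and -4.99 within deciles of score and location. The E-box difference from all-day sites had an interval above 0 under 3 of 6 alternatives and one that spanned 0 under the other 3. Fgf4, Pou5f1 and Utf1 kept a site at an end under each overlap rule and under the day 2 and equal-number cuts; Pou5f1 alone of the 3 kept it under the HDAC1 cut. No paired analysis was possible because no result comes from a test and each group has 1 library. Depth was not used here, so a missing later peak may mean a signal below the calling threshold.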
